A study of Mus musculus with 2 samples.

Results

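Pnlip, Pnliprp1, Pnliprp2, Cel, Clps, Pla2g1b and Rnase1 are 7 genes that encode the fat-, phospholipid- and RNA-digesting proteins of pancreatic juice. They were taken by symbol from the gene list deposited with the matrices, and all 7 were found among its 31253 genes. Transcripts were counted in dissociated mouse pancreas on the BD Rhapsody platform, a single-cell capture system that tags each captured transcript with a unique molecular identifier (UMI). The series consists of 2 libraries. One came from pancreas given Cae together with extracellular vesicles (CP+EVs) and the other from pancreas given Cae alone (CP), so both groups carry the Cae treatment. The condition label of both libraries names acute pancreatitis, while the series title speaks of the chronic form and of vesicles induced by exercise. Strain, age, the time of sampling and the number of animals behind each library are not stated by the labels. A single library stood for each group, so no test was possible and no difference has a replicate check. Every interval below is a 95% interval for counting error only, and every difference compares these libraries rather than the treatments.

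Acinar cells make the digestive enzymes, store them in zymogen granules and release them into the ducts. Pnlip is pancreatic triglyceride lipase, which splits dietary fat, and Clps is colipase, the small cofactor that anchors it to fat droplets covered with bile salts. Cel is the bile salt-dependent lipase that also splits cholesteryl esters, Pla2g1b is a phospholipase A2 made as a proenzyme that trypsin activates, and Rnase1 is the pancreatic ribonuclease. Pnliprp1 and Pnliprp2 are relatives of Pnlip. Pnliprp1 has little known activity against triglycerides, and Pnliprp2 acts on galactolipids and phospholipids as well. Transcription of acinar enzyme genes depends on PTF1, a factor complex that recognises an E-box together with a nearby TC-rich box.

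Pnlip, Pnliprp1 and Pnliprp2 lie side by side on the plus strand of chromosome 19 in the mm10 build (GENCODE annotation). Pnlip spans chr19:58652498-58681788, Pnliprp1 spans chr19:58728887-58744169 and Pnliprp2 spans chr19:58759719-58777534. The gap between Pnlip and Pnliprp1 is 47.1 kb, that between Pnliprp1 and Pnliprp2 is 15.5 kb, and the whole cluster covers 125 kb. The other 4 genes lie apart, Cel at chr2:28555795-28563403, Clps at chr17:28558149-28560766, Pla2g1b at chr5:115466262-115474722 and Rnase1 at chr14:51144998-51146785.

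RefSeq promoter windows (GRCm38.p6), from 250 bases before to 50 bases after the start, were found for 6 of the 7 genes, all but Clps. Pnlip, Cel and Rnase1 are shown because their UMIs varied together over acinar-like barcodes, and Pnliprp1 because it did not vary with them. Capitals mark the E-box CANNTG and the TC-box TTCCCA on either strand. The windows are given 5′ to 3′ on the strand of the gene, at chr19:58670115-58670414 for Pnlip, chr2:28563354-28563653 for Cel, chr14:51146718-51147017 for Rnase1 and chr19:58728637-58728936 for Pnliprp1. The RefSeq start of Pnlip lies inside the longer GENCODE span given above.
Pnlip: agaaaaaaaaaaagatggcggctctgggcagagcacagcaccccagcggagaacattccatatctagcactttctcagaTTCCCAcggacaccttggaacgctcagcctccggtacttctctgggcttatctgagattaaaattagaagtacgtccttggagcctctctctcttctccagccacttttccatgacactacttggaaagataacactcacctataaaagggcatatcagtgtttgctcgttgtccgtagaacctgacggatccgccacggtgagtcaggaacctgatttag
Cel: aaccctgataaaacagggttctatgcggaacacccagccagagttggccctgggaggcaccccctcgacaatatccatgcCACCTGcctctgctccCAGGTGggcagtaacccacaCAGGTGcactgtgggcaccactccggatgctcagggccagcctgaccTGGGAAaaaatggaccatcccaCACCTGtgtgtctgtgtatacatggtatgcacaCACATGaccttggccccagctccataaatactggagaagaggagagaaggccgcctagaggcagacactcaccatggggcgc
Rnase1: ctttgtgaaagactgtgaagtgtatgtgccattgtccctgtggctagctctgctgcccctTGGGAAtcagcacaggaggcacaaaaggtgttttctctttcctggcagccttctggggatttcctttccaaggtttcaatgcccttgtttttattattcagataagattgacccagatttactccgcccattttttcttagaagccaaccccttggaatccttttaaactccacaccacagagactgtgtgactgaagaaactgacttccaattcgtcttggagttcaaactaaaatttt
Pnliprp1: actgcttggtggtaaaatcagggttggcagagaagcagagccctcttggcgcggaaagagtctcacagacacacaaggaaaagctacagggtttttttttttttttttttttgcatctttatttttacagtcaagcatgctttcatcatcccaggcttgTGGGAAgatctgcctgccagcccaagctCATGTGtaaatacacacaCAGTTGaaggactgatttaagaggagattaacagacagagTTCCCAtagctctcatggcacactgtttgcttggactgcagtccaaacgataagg
Cel held 5 E-boxes and 1 TC-box, Pnliprp1 held 2 of each, and Pnlip and Rnase1 each held 1 TC-box and 0 E-boxes. Of the windows not shown, Pnliprp2 held 2 E-boxes and 0 TC-boxes and Pla2g1b held neither. Among 32851 RefSeq promoter windows of this length, 72.3% held an E-box, 25.6% a TC-box and 19.0% both. A match is a run of letters and not a binding site.

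Depth was 38532775 UMIs over 8845 barcodes in CP+EVs (median 2884 per barcode) and 51652425 UMIs over 13507 barcodes in CP (median 1417). After filtering, 8799 CP+EVs and 13409 CP barcodes remained, and 118 barcode sequences occurred in both libraries. Barcodes were clustered without the 7 genes. A single cluster was acinar-like, with 19 of 21 matched acinar markers present in at least 10% of its CP+EVs barcodes. It held 2236 CP+EVs barcodes (25.4%) but 12 CP barcodes (0.0895%). A further pair of clusters was also led by acinar enzymes but stayed unnamed. Cluster 4 was shallow, with a median of 691 UMIs in 1509 CP+EVs and 11 CP barcodes, and cluster 5 carried B cell markers in 303 CP+EVs barcodes and 1 CP barcode. The acinar-like cluster and this pair are called the enzyme-led clusters below.

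In CP+EVs the 7 genes made up 4.70% of all UMIs (1810388), against 0.0155% (7997) in CP. Of the UMIs of the 7 genes in kept barcodes, 68.9% lay in acinar-like barcodes in CP+EVs and 40.3% in CP. The enzyme-led clusters together held 82.5% in CP+EVs and 60.1% in CP. The 12 CP barcodes limit every acinar comparison, since 2 of them supplied 52.2% of their UMIs. Fewer acinar cells captured and less enzyme RNA per acinar cell cannot be told apart from a library's summed UMIs.

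Within acinar-like barcodes the 7 genes took up 16.8% of all UMIs in CP+EVs and 7.35% in CP. All 7 were among the 26 most abundant of 31205 genes in the acinar-like CP+EVs sum. Pnlip ranked 3rd, behind the elastase Cela1 and the chymotrypsinogen Ctrb1. Pnliprp1 ranked 5th, Clps 7th, Rnase1 14th, Pnliprp2 18th, Pla2g1b 19th and Cel 26th.

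Levels are given as CPM, a gene's UMIs scaled to a common total over the barcodes summed. Pnlip reached 52459 CPM (interval 52294 to 52624) in acinar-like CP+EVs barcodes, against 14582 CPM (13471 to 15761) in the CP ones. Its share of a barcode's UMIs had a lowest value of 0.717%, a median of 4.93% and a highest value of 11.5% over the 2236 CP+EVs barcodes. Over the 12 CP barcodes the lowest was 0.123%, the median 0.881% and the highest 4.59%. The ranges overlapped, and the CP median lay below the 5th percentile of CP+EVs (2.14%). Pnlip was 3.60-fold higher in CP+EVs (3.33 to 3.89), the largest fold among the 7 genes, although without the 2 deepest CP barcodes its log2 ratio (1.43) was just below that of Rnase1 (1.45).

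Pnliprp1 reached 41524 CPM in acinar-like CP+EVs barcodes and 22103 CPM in CP ones, a fold of 1.88 (1.76 to 2.0). Its share per barcode ran from 0.311% through a median of 3.71% to 12.8% in CP+EVs. In CP it ran from 0.965% through 1.93% to 3.63%, inside the CP+EVs range. Pnliprp2, the least abundant of the lipase cluster on chromosome 19, had 9211 CPM in CP+EVs and 4196 CPM in CP, a fold of 2.20 (1.90 to 2.55). The order of Pnlip and Pnliprp1 thus differed between the libraries, with Pnlip first in CP+EVs and Pnliprp1 first in CP.

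Clps, the cofactor of Pnlip, had 34000 CPM in acinar-like CP+EVs barcodes and 16738 CPM in CP ones, a fold of 2.03 (1.89 to 2.19). Its share per barcode had a median of 3.32% in CP+EVs, from 0.313% to 10.9%, and of 0.998% in CP, from 0.121% to 5.67%. Cel had 5582 CPM in CP+EVs and 4517 CPM in CP, the smallest fold at 1.24 (1.07 to 1.43), and its direction turned when UMIs were counted against other enzymes instead of all UMIs (fold 0.835). With barcodes of at most 10% mitochondrial UMIs the log2 ratio of Cel was 0.96, against 0.30 before, and that of Pnliprp1, then the lowest, was 0.94. Pla2g1b had 8600 CPM in CP+EVs and 4609 CPM in CP, a fold of 1.87 (1.62 to 2.15). Rnase1 had 17097 CPM in CP+EVs and 6787 CPM in CP, a fold of 2.52 (2.25 to 2.83).

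Counted per length of the longest annotated transcript, the order of levels in acinar-like CP+EVs barcodes changed. Clps came first with 55647 CPM per kb, then Pnlip with 35279, Pnliprp1 with 25648, Rnase1 with 17235, Pla2g1b with 15440, Pnliprp2 with 5859 and Cel with 2706 CPM per kb. A UMI tags a captured transcript and not a stretch of it, so the CPM order is the one to read as levels. The part of the transcript that was read is not stated by the labels. The order per kb is printed for comparison only. The counting intervals of neighbours in either order did not overlap in CP+EVs. In CP the intervals of Pla2g1b, Cel and Pnliprp2 overlapped on the CPM scale.

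Of the 7 genes, 6 were at least 1.5-fold higher in acinar-like CP+EVs barcodes than in CP ones, Cel being the exception. Among 6034 genes measured in that comparison, 12.2% passed the same fold. The median log2 ratio of the 7 was 1.02, beside -1.27 for all 6034 genes. Relative to that median shift the log2 ratio of Pnlip was 3.12 and that of Cel 1.57. In the CP sum 1 UMI equals 22.9 CPM, so a gene low in CP+EVs could reach 20 CPM through 1 CP UMI. Such genes lower the median of all genes, which limits each comparison with it and with the 12.2%. Of the 25 other acinar enzymes and granule proteins measured, 13 passed the fold, with a median log2 ratio of 0.65. Cela1, the most abundant of them, had 80851 CPM in CP+EVs and 21186 CPM in CP. Ctrb1 had 56556 CPM in CP+EVs and 71697 CPM in CP. The digestive enzymes therefore did not differ between these libraries by a common factor. Which genes passed depended on the barcodes kept. Without the 2 deepest CP barcodes the log2 ratio was 0.35 for Pla2g1b, against 0.90 with them, so that Pla2g1b no longer passed, and it was 0.06 for Cel. With at most 10% mitochondrial UMIs Cel passed as well.

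Each gene was next counted per 100 UMIs of 10 reference enzymes (Prss2, Try4, Try5, Ctrb1, Ctrl, Cela1, Cela2a, Cela3b, Cpa1 and Cpb1), which removes the share of other RNA in a barcode. The trypsinogens Prss2, Try4 and Try5 belong to a family of similar copies whose reads the counting may have split. In CP+EVs acinar-like barcodes Pnlip stood at 17.1 per 100 reference UMIs (17.0 to 17.2), and in CP ones at 7.03 (6.48 to 7.62). All 12 CP barcodes lay below the CP+EVs median of 16.3, and 11 of them below its 5th percentile of 10.8. For Clps 11 of the 12 CP barcodes lay below the CP+EVs median, for Rnase1 10, for Pla2g1b 9, for Pnliprp1 and Pnliprp2 8 each and for Cel 4. No CP barcode lay below the 5th percentile of CP+EVs for Pnliprp1 or for Cel.

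**Figure D1:**
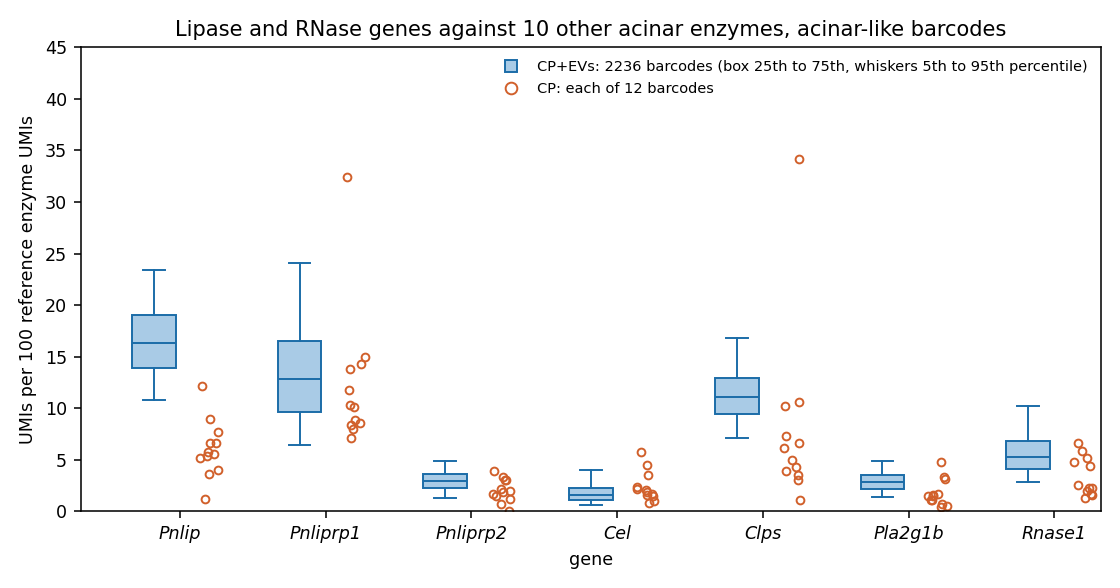
UMIs of each gene per 100 UMIs of 10 reference enzymes in acinar-like barcodes, CP+EVs as boxes over 2236 barcodes (line, median; box, 25th to 75th percentile; whiskers, 5th to 95th percentile) and CP as 12 single points. For Pnlip 11 of the 12 CP points lie below the whisker of the CP+EVs box, while for Cel and Pnliprp1 none does.

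On this scale the fold of CP+EVs over CP in acinar-like barcodes was 2.43 for Pnlip, 1.70 for Rnase1, 1.48 for Pnliprp2, 1.37 for Clps, 1.27 for Pnliprp1, 1.26 for Pla2g1b and 0.835 for Cel. The value depended on the enzyme set beside each gene. Against single reference enzymes the fold of Pnlip ran from 0.943 (Cela1) to 4.56 (Ctrb1) and was at least 1.5 against 9 of the 10. That of Rnase1 ran from 0.660 to 3.19 and that of Cel from 0.324 to 1.57, with Cela1 lowest and Ctrb1 highest for both. Pnlip and Cela1 were thus both lower in CP relative to the other reference enzymes.

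The 12 CP barcodes also differed among themselves. The barcode with most Clps relative to the reference enzymes had 92 Clps UMIs beside 269 reference UMIs, and another had 1 beside 90. Pla2g1b reached 102 UMIs beside 2123 reference UMIs in the third deepest CP barcode and 31 beside 2071 in the deepest. The single CP barcode of cluster 5 held 577 UMIs of Pnliprp1 and 358 of Pnlip, the same order as in the acinar-like CP sum.

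Pnlip and Pnliprp1 can be compared without any reference enzyme. Acinar-like barcodes held 1.26 Pnlip UMIs per Pnliprp1 UMI in CP+EVs (1.26 to 1.27) and 0.660 in CP (0.596 to 0.730). Pnlip exceeded Pnliprp1 in 1513 of 2236 CP+EVs barcodes (67.7%) and in 2 of 12 CP barcodes. Outside the enzyme-led clusters the ratio was 1.18 in CP+EVs (1.17 to 1.19) and 0.498 in CP (0.448 to 0.553). It lay above 1 in all 13 other CP+EVs classes, from 1.11 in B cell-like to 1.47 in neutrophil-like barcodes. In CP it lay above 1 in 1 of 10 classes with at least 20 UMIs of the pair, the eosinophil-like one at 1.18 (0.489 to 2.91). Cluster 4 stood highest in both libraries, at 1.73 in CP+EVs and 1.29 (0.808 to 2.06) in CP. The classes of a library are parts of it and not replicates.

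Co-variation was described over the 2046 acinar-like CP+EVs barcodes with at least 1000 UMIs, each thinned to 1000, which left out 190. Thinned barcodes held a mean of 50.8 ± 18.7 Pnlip UMIs, 40.5 ± 16.4 of Pnliprp1, 34.0 ± 10.3 of Clps, 17.1 ± 8.48 of Rnase1, 9.07 ± 4.03 of Pnliprp2, 8.59 ± 3.72 of Pla2g1b and 5.46 ± 3.84 of Cel (SD over barcodes of 1 library). Pnlip ran from 10 to 127 UMIs per 1000 and Pnliprp1 from 5 to 128. The variance was 6.86 times the mean for Pnlip and 6.66 times for Pnliprp1, but 1.79 times for Pnliprp2 and 1.61 times for Pla2g1b. Pnlip, Pnliprp1, Clps and Rnase1 had a UMI in every thinned barcode, while Cel was at 0 in 61, Pnliprp2 in 6 and Pla2g1b in 4.

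Over these barcodes Pnlip, Cel and Rnase1 varied together. The Pearson correlation of log2(UMIs + 1) was 0.57 between Pnlip and Rnase1, 0.45 between Pnlip and Cel and 0.44 between Cel and Rnase1. On this scale Pnliprp1 stood apart, at 0.08 with Pnlip, its neighbour on chromosome 19, -0.03 with Cel and -0.16 with Rnase1. Its highest value within the 7 was 0.26, with Pnliprp2. Clps had 0.33 with Pnlip and 0.35 with Rnase1. The median over all 21 pairs was 0.19. The division depended on the scale. Counted per UMI of genes other than acinar enzyme and Reg genes, Pnlip and Pnliprp1 were at 0.67. There Pnlip and Rnase1 were at 0.85, Pnlip and Cel at 0.61, Cel and Rnase1 at 0.60 and Pnliprp1 and Rnase1 at 0.48. No pair was below 0.35 on that scale. There the 7 genes of a barcode are divided by the same varying count, which favours positive values. The points share 1 library, any free RNA in it and, where thinned, a fixed total, so these correlations are descriptions.

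**Figure D2:**
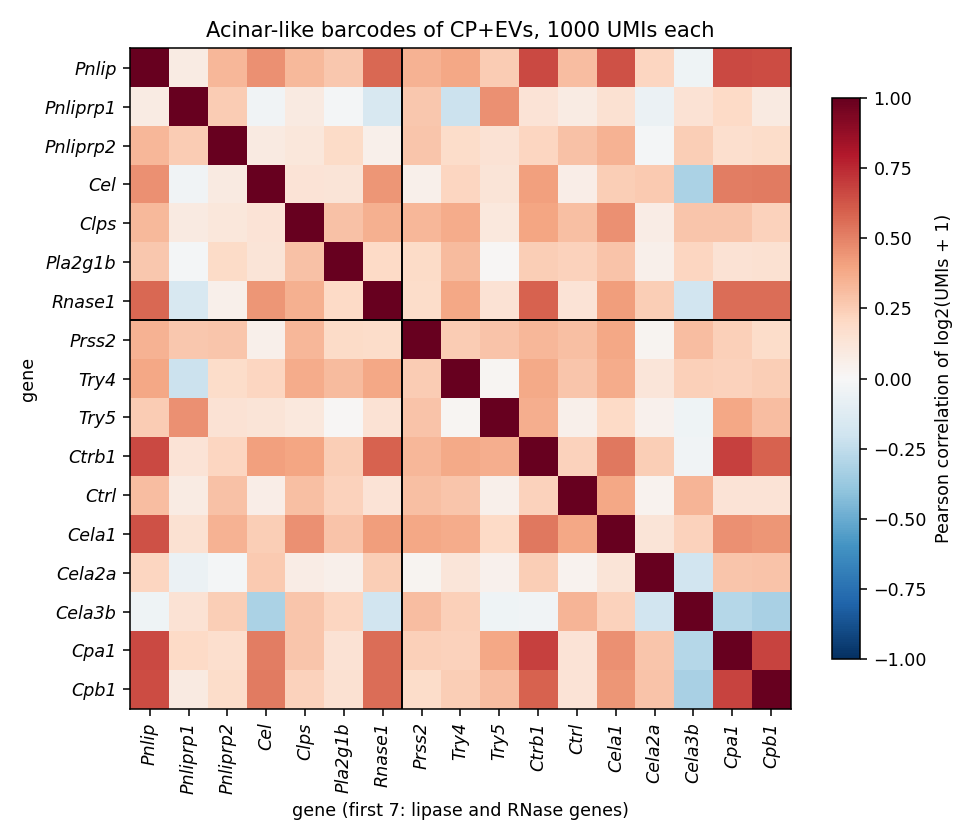
Pearson correlation of log2(UMIs + 1) between the 7 genes (upper left block) and the 10 reference enzymes over 2046 acinar-like CP+EVs barcodes thinned to 1000 UMIs. Pnlip, Cel and Rnase1 lie between 0.44 and 0.57 with each other and between 0.41 and 0.66 with Ctrb1, Cpa1 and Cpb1, Pnlip is also at 0.63 with Cela1, and the row of Pnliprp1 is pale but for Try5 (0.45).

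The genes most like each member, among 279 with a mean of at least 0.2 UMIs per thinned barcode, followed the same division. For Pnlip they were Ctrb1 (0.66), Cpa1 (0.66) and Cpb1 (0.65). For Rnase1 they were Ctrb1 (0.59), Pnlip (0.57) and Cpa1 (0.56), and for Cel they were Cpb1 (0.52), Cpa1 (0.51) and Pnlip (0.45). Cpa1 and Cpb1 encode procarboxypeptidases. For Pnliprp1 they were instead Try5 (0.45), the granule membrane protein gene Gp2 (0.42) and the kallikrein gene Klk1 (0.28). For Pnliprp2 they were Cela1 (0.35), Pnlip (0.33) and Ctrl (0.29), for Clps they were Cela1 (0.46), 2210010C04Rik (0.44) and Reg1 (0.42), and for Pla2g1b they were Try4 (0.32), Clps (0.29) and 2210010C04Rik (0.29).

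To count the genes against acinar RNA alone, the barcodes were also thinned to 300 UMIs of acinar enzyme and Reg genes alone, which leaves 2122 barcodes. On that scale the median over the 21 pairs was -0.05, and 15 pairs were below 0, as a fixed total of few abundant genes favours. Cel and Rnase1 (0.20), Pnlip and Cel (0.19) and Pnlip and Rnase1 (0.13) stayed above 0. Pnliprp1 had -0.31 with Pnlip and -0.41 with Rnase1, and 0.12 with Pnliprp2. Try5 was at 0.30 with Pnliprp1. The first-ranked genes of the other members were lower there. Ctrb1 was at 0.12 with Pnlip and 0.22 with Rnase1, and Cpb1 was at 0.25 with Cel. Try4 was at 0.10 with Pla2g1b, and Cela1 was at 0.06 with Pnliprp2 and 0.03 with Clps.

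The 2046 barcodes were also placed in quartiles by their reference enzyme UMIs. That sum holds Ctrb1, Cpa1, Cpb1 and Cela1, which varied with Pnlip in the same barcodes. The quartiles therefore restate the correlations as levels and are no separate support. The lowest quartile had a median of 223 reference UMIs per 1000 and the highest 366.5. Pnlip averaged 31.1 UMIs per 1000 in the lowest quartile and 65.6 in the highest, Rnase1 10.6 and 21.7, and Cel 3.40 and 7.29. Pnliprp1 averaged 36.4 in the lowest quartile and 40.0 in the highest. In the lowest quartile Pnliprp1 was therefore above Pnlip, as in the CP sum.

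**Figure D3:**
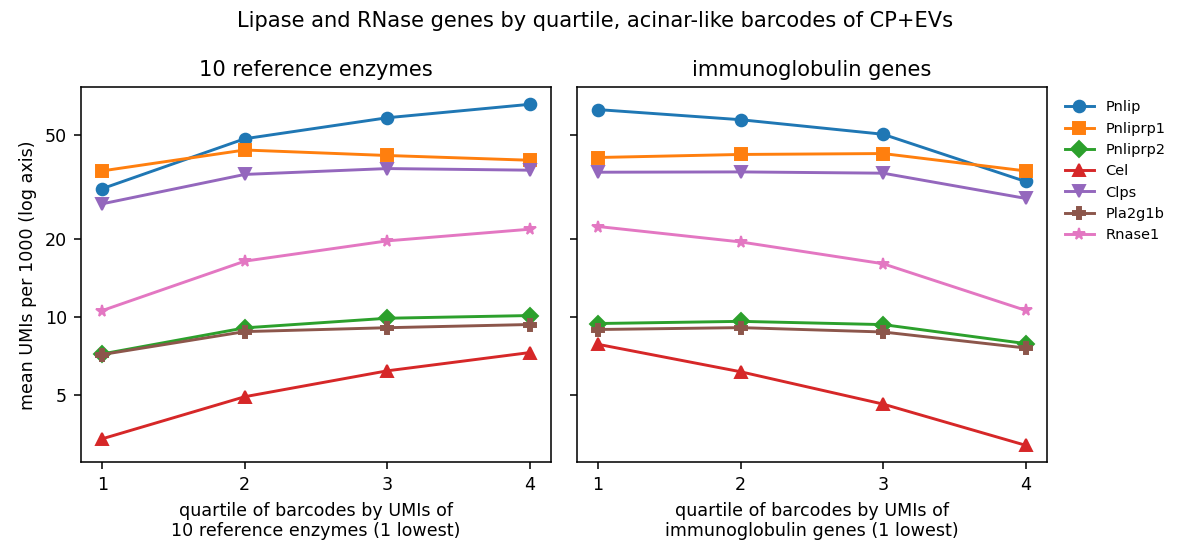
Mean UMIs per 1000 of each gene (log axis) in quartiles of 511 or 512 acinar-like CP+EVs barcodes, ordered by UMIs of the 10 reference enzymes (left) and of immunoglobulin genes (right). Pnlip, Rnase1 and Cel climb on the left and descend on the right, and the line of Pnliprp1 crosses that of Pnlip.

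Pnlip, Rnase1 and Cel were lower where RNA of other cell types or mitochondrial RNA made up more of a barcode. A fixed total of 1000 UMIs favours such an inverse relation. From the lowest to the highest quartile by immunoglobulin UMIs, whose medians were 6 and 24 per 1000, Pnlip averaged 62.6 and 33.1, Rnase1 22.2 and 10.6, Cel 7.84 and 3.21, and Pnliprp1 41.0 and 36.4. By the share of mitochondrial UMIs Pnlip averaged 62.5 in the lowest quartile and 36.0 in the highest, and Pnliprp1 42.7 and 33.5. By fibroblast markers Pnlip averaged 60.2 and 36.6. By depth before thinning Pnlip averaged 41.7 and 54.9. In acinar-like CP+EVs barcodes all 10 fibroblast markers had a UMI in at least 10% of barcodes and summed to 4166 CPM, 10.3% of their level in fibroblast-like barcodes. Of 9 B cell markers 7 did so, with 959 CPM or 11.9% of their own class. Endocrine markers summed to 42.0 CPM, with 3 of 10 at 0. The part of such RNA in the co-variation was not tested.

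Outside the enzyme-led clusters all 7 genes were found in every CP+EVs class. Summed over these classes, their levels were 14.7 to 16 times lower than in acinar-like barcodes, and single classes lay nearer or further. The fold was 15.7 for Pnlip (15.6 to 15.9), 14.7 for Pnliprp1 and 16 for the summed reference enzymes. All 7 passed a 1.5-fold difference between acinar-like barcodes and the rest, as did 3.11% of 6983 genes measured. Pnlip averaged 3333 CPM outside, from 2288 CPM in dendritic cell-like to 5892 CPM in ductal-like barcodes. In CP it averaged 10.4 CPM outside the enzyme-led clusters.

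**Figure D4:**
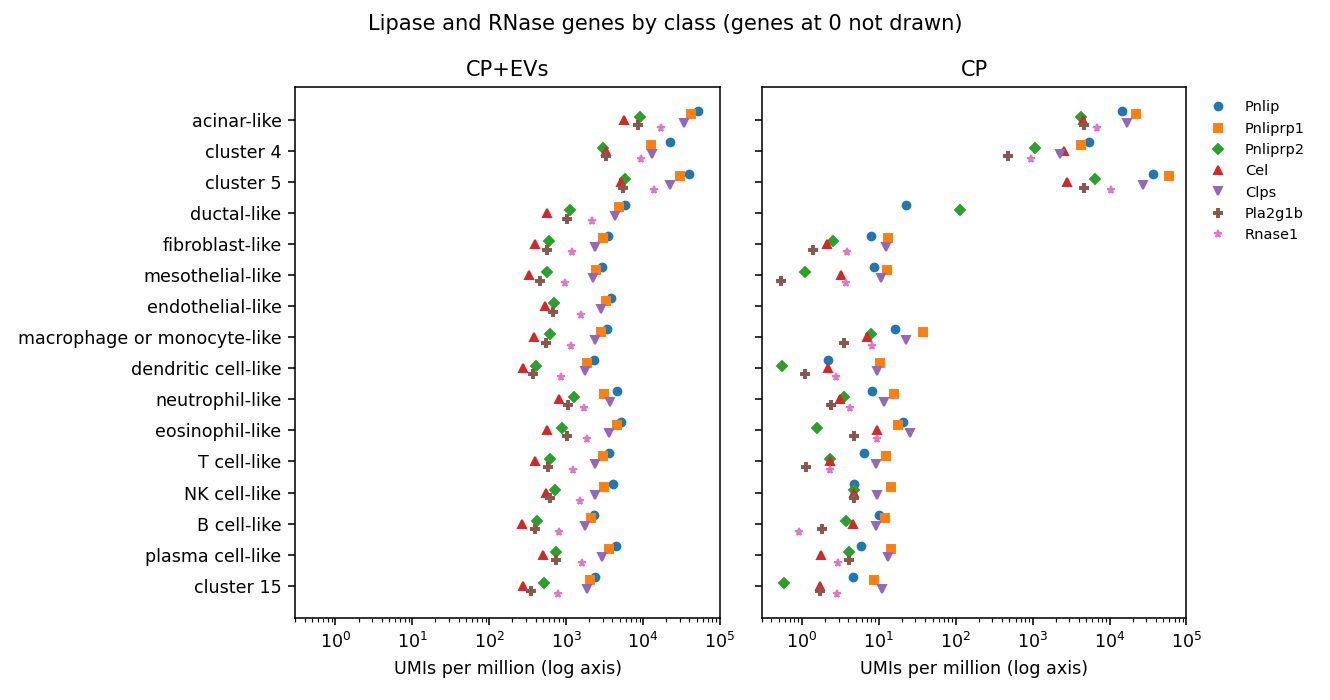
CPM of each gene (log axis) in every class, CP+EVs left and CP right. In CP+EVs Pnlip is the highest of the 7 in every class, Clps exceeds Pnliprp1 in cluster 4 and in neutrophil-like barcodes, and outside the 3 uppermost classes they lie between 264 CPM (Cel, B cell-like) and 5892 CPM (Pnlip, ductal-like).

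The mixture of the genes in these other classes was set beside that of the acinar-like barcodes. In CP+EVs Pnlip had 17.1 per 100 reference UMIs in acinar-like barcodes and 17.4 over the 13 other classes, from 14.1 in neutrophil-like to 18.4 in eosinophil-like barcodes. Pnliprp1 had 13.5 in acinar-like barcodes and 14.7 over the other classes, Clps 11.1 and 12, Rnase1 5.57 and 6.01, Pnliprp2 3.0 and 3.06, Pla2g1b 2.80 and 2.81, and Cel 1.82 and 1.96. Single classes departed further, with Pnliprp1 at 9.57 in neutrophil-like barcodes, Cel at 2.50 in NK cell-like ones and Clps at 12.7 in B cell-like ones. Barcodes in which reference enzymes made up at least 10% of UMIs numbered 153 of 4751 outside the enzyme-led clusters and held 30.7% of the UMIs of the 7 genes there. Without them Pnlip stood at 17.3 per 100 reference UMIs. Of the 13 classes, the counting interval excluded the value over all of them in 8 for Clps, 6 for Pnliprp1, 4 for Pnlip and 0 for Pla2g1b. Whether RNA of the 7 genes in classes that should lack it came from background, from mixed barcodes or from those classes was not tested.

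In CP the mixture outside the enzyme-led clusters lay near that of the acinar-like barcodes for some of the genes. Pnlip had 7.03 per 100 reference UMIs in acinar-like barcodes and 6.91 outside (6.32 to 7.55), and Rnase1 3.27 and 3.34. Pnliprp1 had 10.7 in acinar-like barcodes and 13.9 outside, and Pla2g1b 2.22 and 1.49. Over the 9 CP classes with at least 100 reference UMIs, Pnlip ran from 3.48 in dendritic cell-like to 9.42 in eosinophil-like barcodes. The highest CP class lay below the lowest of the 13 CP+EVs classes, which was 14.1. The classes of a library are parts of it and not replicates, so this is 1 difference between 2 libraries. Different clusters held most fibroblast-like and most macrophage- or monocyte-like barcodes in each library.

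**Figure D5:**
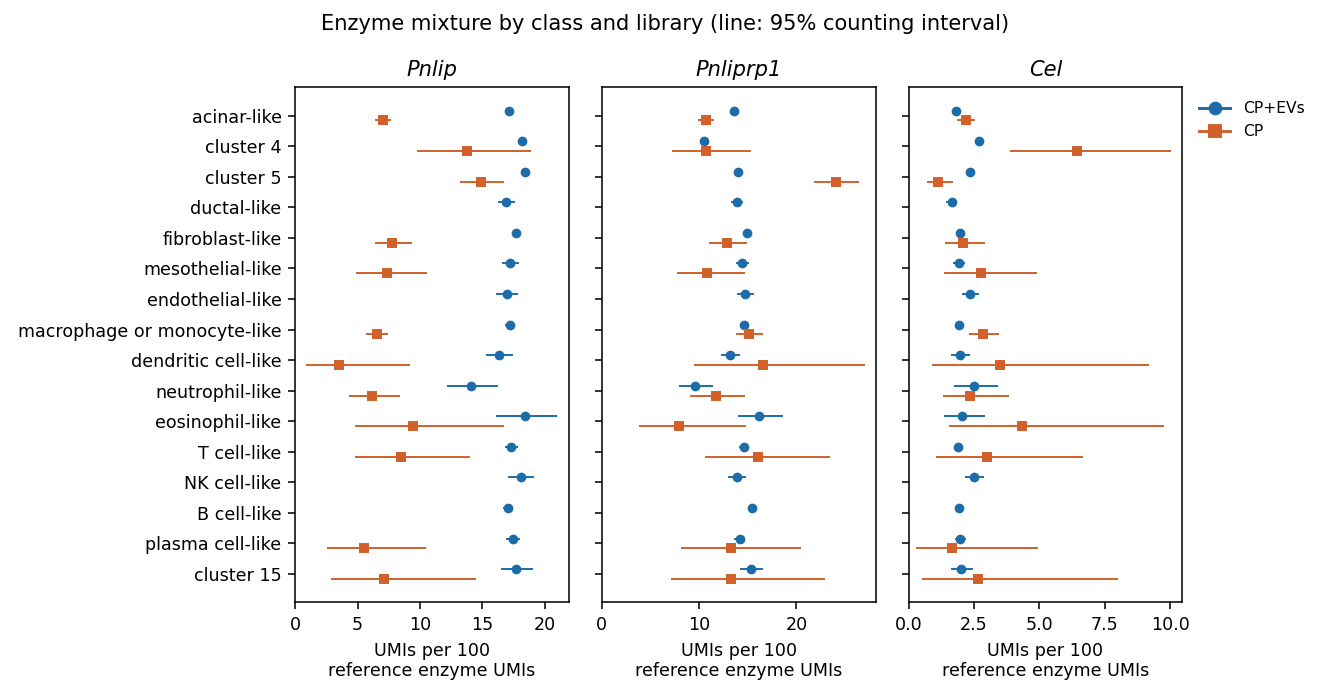
UMIs of Pnlip, Pnliprp1 and Cel per 100 UMIs of the 10 reference enzymes by class, CP+EVs as circles above CP as squares, with 95% counting intervals, for classes with at least 100 reference UMIs. Outside clusters 4 and 5 Pnlip lies from 14.1 to 18.4 in CP+EVs and at most at 9.42 in CP, whereas the libraries overlap for Pnliprp1 and Cel.

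Outside the enzyme-led clusters the fold of CP+EVs over CP per reference UMI was 2.52 for Pnlip (2.31 to 2.74), 1.89 for Pla2g1b, 1.8 for Rnase1, 1.19 for Clps, 1.09 for Pnliprp2, 1.06 for Pnliprp1 and 0.735 for Cel (0.640 to 0.848). Pnlip had the highest fold and Cel the lowest. Against single reference enzymes the fold of Pnlip ran from 1.25 (Cela1) to 4.65 (Cela2a). Over all kept barcodes the plain CPM fold was 479 for Pnlip and 186 for Cel, with 223 for the summed reference enzymes. All 7 genes were at least 1.5-fold higher there, as were 9.66% of 7155 genes.

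Shares of barcodes with a UMI also differed between the libraries. Among T cell-like barcodes, which should lack Pnlip, 490 of 571 thinned CP+EVs barcodes held a Pnlip UMI (85.8%) and 6 of 636 CP ones did (0.943%). Before thinning the shares were 98.2% at a median of 3391 UMIs in CP+EVs and 2.11% at a median of 2903 UMIs in CP. For Cel 140 of 571 CP+EVs barcodes did (24.5%) and 0 of 636 CP ones, which allows a share of up to 0.472% at 3 counts. Before thinning the Cel shares were 54.4% in CP+EVs and 0.704% in CP. All 10 CP acinar-like barcodes with at least 1000 UMIs held both. The 5 ductal-like CP barcodes held 5 UMIs of Pnliprp2 beside 1 of Pnlip, 0 of the other 5 genes and 7 of the reference enzymes. That Pnliprp2 level, 113 CPM (36.8 to 265), rests on 5 UMIs.

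Relatives of the 7 genes were found in other cells. Of 19 other lipases and lipase partners, 6 were abundant enough to be measured over all kept barcodes, of which 3 were at least 1.5-fold higher and 2 lower in CP+EVs, beside 9.66% higher among all genes measured. The share of all genes lower was not counted, and their median log2 ratio was -0.18. The highest level was that of Lpl, the lipoprotein lipase, at 2920 CPM in macrophage- or monocyte-like CP+EVs barcodes and 242 CPM in acinar-like ones. Lipa, the lysosomal acid lipase, had 26.1 CPM in acinar-like CP+EVs barcodes, Pnpla2, which starts the breakdown of stored fat, had 23.2 CPM and Mgll, the monoglyceride lipase, had 18.9 CPM. Of 15 phospholipase A2 genes and their receptor, 6 were measured, 2 higher and 3 lower. The highest was Pla2g7, which inactivates platelet-activating factor, at 1124 CPM in eosinophil-like CP barcodes, while acinar-like CP+EVs barcodes held 30.7 CPM of Pla2g12a and 24.7 CPM of Plaat3. Of 16 genes of the ribonuclease A family and their inhibitor Rnh1, 5 were measured, 2 higher and 1 lower. Rnase4 was the highest, at 1844 CPM in fibroblast-like CP+EVs barcodes and 230 CPM in acinar-like ones. Ang, angiogenin, had 67.4 CPM, Rnh1 37.6 CPM and Ear2 13.6 CPM in acinar-like CP+EVs barcodes. In acinar-like CP+EVs barcodes over barcodes outside the enzyme-led clusters, 0 of the 5 measured genes of each of these families were at least 1.5-fold higher, beside 3.11% of all genes measured. Of the 5, 4 lipases, 4 phospholipase genes and 3 ribonuclease genes were lower by that fold. Most of the 6983 genes measured were lower too, since their median log2 ratio was -1.63. The medians were -1.89 for the lipases, -1.96 for the phospholipase genes and -1.90 for the ribonuclease genes. These counts are therefore no particular trait of the families.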

How the data were processed

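Per the file headers and values, the deposited matrix of each library gives whole, unscaled UMI counts. The submitters' processing notes name CASAVA 1.8, UMI-tools, Seurat and the mm10 build, with an aligner not given in the sources used here. Depth of the shallowest barcode was 501 UMIs. Positions came from GENCODE vM21. Repeated symbols (43) were reduced to their most abundant entry.

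Barcodes under 200 genes or above 25% mitochondrial UMIs were dropped, removing 46 CP+EVs and 98 CP barcodes. Scrublet marked 0 barcodes in either library, below the 0.5% at which a caller counts as working. No doublet was removed, and mixed barcodes may remain. With scanpy 1.11.5, 2000 variable genes without the 7, 30 components, 15 neighbours and Leiden resolution 1 gave 24 clusters, named from 23 marker lists. A name needed at least 3 markers with a log2 fold above 1 over the median cluster and a UMI in 10% of barcodes, and the acinar name needed 10 acinar markers among 50 leading genes. Names were refused for shallow or mixed clusters. This naming rule was chosen after seeing the data.

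UMIs were summed per library and class as CPM, with exact Poisson intervals. Intervals of ratios were conditional on the summed count, shares had exact Clopper-Pearson intervals, and a share of 0 is bounded by 3 counts. For log2 ratios 0.5 was added to each sum, with CP+EVs on top. Genes reaching 20 CPM in either library and 20 UMIs in both together gave the background share past 1.5-fold. These steps were tested on simulated counts. All 7 genes are named, with up to 4 genes of highest acinar-like CP+EVs level per list, the highest relative in another class and the 3 most correlated genes. The 7 genes and the lists were chosen with earlier results of these data known.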

Additional observations from a re-analysis of the deposited data

How the results depend on the processing

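The summed level of the 7 genes in acinar-like CP+EVs barcodes was 168473 CPM. It was 149983 and 169178 CPM in barcodes with at least 10% and 20% reference enzyme UMIs, 167558 with at least 500 genes, 150923 at Leiden resolution 0.5, 160264 as a mean over barcodes and 448391 CPM of other RNA. The log2 ratio of the 7 summed genes over all kept barcodes was 8.25, and 8.43 under median-of-ratios scaling, 8.52 without acinar enzyme and Reg UMIs in the total and 0.44 per reference enzyme UMI. In acinar-like barcodes it was 1.20, and 1.42 with at most 10% mitochondrial UMIs, 2.47, 1.78 and 0.63 under the same 3 scalings and 1.06 without the 2 deepest CP barcodes. Cel turned to -0.26 per reference enzyme UMI in both populations. Genes at least 1.5-fold higher numbered 691 over all kept barcodes, 1146 without enzyme and Reg UMIs and 5365 with no filter on low genes. In acinar-like barcodes they numbered 736, 306 with at most 10% mitochondrial UMIs, 1900 under median-of-ratios scaling and 476 without the 2 deepest CP barcodes. The median pair correlation was 0.19, 0.60 per non-enzyme UMI and -0.054 over 300 enzyme UMIs. Over enzyme UMIs alone Pnlip turned to -0.31 with Pnliprp1 and -0.21 with Clps, and Clps to -0.012 with Rnase1, while Pnliprp1 and Rnase1 turned to 0.48 per non-enzyme UMI. Outside the enzyme-led clusters the 7 genes had 58.0 per 100 reference UMIs in CP+EVs, 78.0 over the 5 most abundant reference enzymes, 57.3 with the 7 genes among the clustering genes and 59.3 without enzyme-rich barcodes. In CP they had 41.2, and 57.8 over the 5 enzymes. The Pnlip share of T cell-like CP+EVs barcodes was 85.8%, and 64.0% thinned to 500 UMIs. The causes were not tested. Scaling per reference enzyme UMI, 300 enzyme UMIs and leaving out the 2 deepest CP barcodes were chosen after the data were seen. The alternative that keeps the largest acinar-like cluster was not run, since there was 1 such cluster. No paired analysis was possible because each group has 1 library. The 12 CP barcodes limit the acinar comparison, and possible free RNA limits every class. Median-of-ratios scaling of acinar-like barcodes is limited further, since a gene could reach 20 CPM through 1 CP UMI.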

Other observations

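Reg genes encode secreted lectins known from injured pancreas. Of 6 measured in acinar-like barcodes, 0 were at least 1.5-fold higher in CP+EVs, beside 12.2% of all genes measured, and 5 were lower. Their median log2 ratio was -2.74, beside -1.27 for all genes measured. Most genes measured were thus lower by 1.5-fold as well, and their share was not counted. Genes low in CP+EVs could reach 20 CPM through 1 CP UMI, which lowers that median and limits the comparison. Reg3b had 918 CPM in CP+EVs and 35562 CPM in the 12 CP barcodes, and Reg2 had 2846 CPM in CP+EVs and 12473 CPM in CP. Reg1 had 38717 CPM in CP+EVs and 44412 CPM in CP. Clu, the gene of clusterin, had 1019 CPM in CP+EVs and 18985 CPM in CP, whereas Tff2, a trefoil peptide gene, had 5685 CPM in CP+EVs and 1628 CPM in CP. These values rest on the same 12 CP barcodes and were not tested.

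Acinar transcription factors had low levels beside the enzymes. In acinar-like CP+EVs barcodes Xbp1, a regulator of secretory capacity, had 264 CPM, Bhlha15 106 CPM, Nr5a2 34.8 CPM and Rbpjl, a subunit of PTF1, 30.9 CPM. In CP these were 802 CPM for Xbp1 (35 UMIs) and 91.7 CPM for Nr5a2 (4 UMIs), with 0 UMIs of Bhlha15 and of Rbpjl. A count of 0 there allows up to 68.8 CPM at 3 counts, which is above the CP+EVs level of Rbpjl. Of 8 such factors measured in acinar-like barcodes, 2 were at least 1.5-fold higher in CP+EVs and 6 lower. Their median log2 ratio was -1.59, beside -1.27 for all genes measured, of which 12.2% were higher. Of 20 secretory pathway genes, 2 were at least 1.5-fold higher and 7 lower in acinar-like CP+EVs barcodes, with 12.2% of all genes measured being higher. Their median log2 ratio was -0.10, beside -1.27 for all genes measured, most of which were thus lower by 1.5-fold. The limit given above for the median of all genes applies here too. The endoplasmic reticulum chaperone Hspa5 had 1473 CPM in CP+EVs and 1215 CPM in CP, and Pdia2, a protein disulphide isomerase abundant in pancreas, had 644 CPM in CP+EVs and 413 CPM in CP.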
